A study of Mus musculus with 4 samples.

Results

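The genes for the proteins of the cytosolic ribosome were described in single cells of a mouse ascites tumor. All genes whose symbol is Rpl or Rps followed by a digit, and Rplp0, Rplp1, Rplp2 and Rpsa, were taken without the pseudogenes and the Rps6k kinases, and 85 of the 86 such genes had at least 10 UMIs (unique molecular identifiers, each standing for 1 captured mRNA molecule) over all samples. The files list 32285 genes in all. Of the 85, 77 were canonical ribosomal proteins, 46 of the large subunit with its stalk and 31 of the small subunit. A further 7 were paralogs, near copies of a canonical gene. Rps19bp1 shares only the name and is counted with the others below where it was tested. Rpl10l was listed at 0 UMIs and was left out.

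The small subunit of the ribosome reads the mRNA, and the large subunit joins the amino acids and guides the new chain through its exit tunnel. Most ribosomal protein mRNAs begin with a run of pyrimidines, the terminal oligopyrimidine tract, through which mTOR and Larp1 control their translation. Their genes are known for high and joint expression in growing cells, and several, such as Rps19, Rps24 and Rpl5, are mutated in Diamond-Blackfan anemia.

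DLA (Dalton's lymphoma ascites) cells, a transplantable mouse tumor line, were injected into the peritoneum of Swiss albino mice, and the cells of 2 control and 2 SP11 samples were sequenced. SP11, a coumarin-imidazothiadiazole inhibitor of the chaperone HSP90, was given by mouth at 30 mg/kg for 17 days. The sample labels name the controls as untreated and the supplement names a vehicle, so which is right is not settled. The number of mice behind each sample is not given in the sources used here, and p-values therefore measure only the spread between these samples.

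Of the barcodes, 916 and 566 in the control samples and 1831 and 1091 in the SP11 samples had at least 200 genes and at most 10% mitochondrial UMIs, with 9574906 to 13024964 UMIs per sample. Cells were classed by marker UMIs. The tumour gate needed at least 3 UMIs of Krt8 and Krt18 and held 850, 532, 1253 and 580 cells (control 1, control 2, SP11 sample 1, SP11 sample 2), the myeloid gate held 24, 15, 195 and 121 cells, and the B, T and neutrophil gates held at least 10 cells in the SP11 samples alone. Tumour-gated cells went against the lymphoma label, since 8 lymphoid markers (among them Ptprc, Lck and Cd3e) summed to 0.948 to 14.9 CPM in them (a gene's UMIs per 1000000 UMIs of the class and sample), and they are called by their gate here. Barcodes that another library also lists numbered 251 to 682 per sample. Hemoglobin UMIs made 0.0178% to 1.04% of the UMIs of tumour-gated cells and up to 7.97% of those of myeloid-gated cells, in both classes more in the SP11 samples.

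Start sites of the genes called lower in tumour-gated cells, and of the Rps27 paralogs, are shown so that the pyrimidine tract can be seen where it stands at the annotated start. Each is 30 bases of the mouse genome (RefSeq, GRCm38.p6), 15 before the start and 15 from it, with the longest run of C and T that begins with C in capitals. The table matched 57 of the 77 canonical genes, and Rps29 was not among them.
Rps28, chr17:33824548-33824577, minus strand: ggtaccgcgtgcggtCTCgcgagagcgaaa
Rpl38, chr11:114668565-114668594, plus strand: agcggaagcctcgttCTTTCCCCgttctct
Rps21, chr2:180257364-180257393, plus strand: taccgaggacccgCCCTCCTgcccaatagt
Rpl39, chrX:37085208-37085237, minus strand: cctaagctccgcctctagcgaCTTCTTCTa
Rps27, chr3:90213634-90213663, minus strand: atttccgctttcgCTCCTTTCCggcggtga
Rps27rt, chr9:114982725-114982754, minus strand: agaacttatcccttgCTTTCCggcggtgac
Rps27l, chr9:66946071-66946100, plus strand: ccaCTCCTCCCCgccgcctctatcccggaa

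A run of at least 7 bases stood in 26 of the 57 canonical windows (45.6%), searched on the gene's own strand, against 14.1% of 27025 windows of all genes. The median run was 6 bases in the canonical genes and 4 in all genes. Rpl38, Rps27 and Rps24 had their run within 2 bases of the annotated start, and Rps28 had no run over 3 bases in this window. The Rps27rt window holds the end of the Rps27 tract and the bases after it, and the reads of these nearly identical genes are uncertain between them.

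The share of all UMIs on these genes differed between cell classes. In tumour-gated cells they took 32.2% and 32.3% of the UMIs in the control samples and 30.4% and 29.4% in the SP11 samples. In myeloid-gated cells they took 25.8% and 27.3% in the controls and 16.4% and 16.7% in the SP11 samples. In the SP11 samples the B cells were at 31.3% and 28.9%, the T cells at 24.2% and 24.7%, and the neutrophils at 8.18% and 5.17%. The order of the classes in both SP11 samples was neutrophils, myeloid cells and T cells below tumour and B cells. The order of tumour and B cells turned between the samples. Without hemoglobin, immunoglobulin and mitochondrial UMIs in the total, B cells were above tumour-gated cells in both samples. B cells were then at 35.4% and 32.9%, tumour-gated cells at 31.3% and 30.2% and neutrophils at 12.9% and 7.79%. The counting error was small next to the differences between classes. The 95% Clopper-Pearson intervals were 23.4% to 25.1% for the 14 T cells of SP11 sample 1 and 16.3% to 16.6% for its 195 myeloid cells. The spread between single cells was wider than this error. Lower and upper quartiles in that sample were 22.4% and 30.1% over T cells, 12.3% and 18.9% over myeloid cells and 3.86% and 12.6% over neutrophils.

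**Figure D1:**
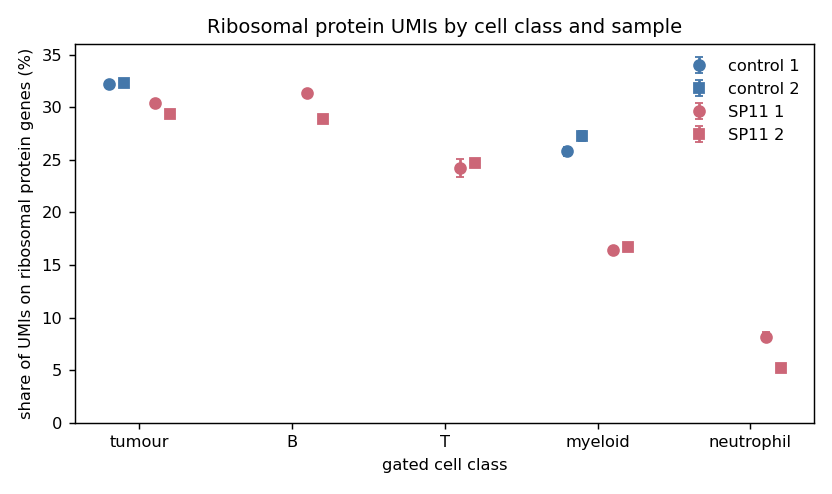
Share of UMIs on ribosomal protein genes (y axis, percent) in each gated cell class (x axis). Each point is the sum over the cells of a class in 1 sample, bars are 95% Clopper-Pearson intervals for counting error, and classes with under 10 cells in a sample are left out. The SP11 points lie below the control points in tumour and myeloid cells, and neutrophils are lowest at 5.17% and 8.18%.

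Between treatments, the share was 32.3% ± 0.0579 (SD, n = 2) in control and 29.9% ± 0.724 (SD, n = 2) in SP11 tumour-gated cells, a difference of -2.38 percentage points. In myeloid-gated cells it was 26.5% ± 1.03 (SD, n = 2) and 16.6% ± 0.206 (SD, n = 2), a difference of -9.98 points. Groups did not overlap in either class, and the two-sided exact permutation test gave p = 0.333 for both, the smallest that 2 samples against 2 allow. Without hemoglobin, immunoglobulin and mitochondrial UMIs in the total, the differences were -2.10 points in tumour-gated and -8.77 points in myeloid-gated cells. With every cell thinned to 500 UMIs, they were -2.97 and -10.8 points.

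The lower share of the SP11 myeloid cells was present in cells with and without UMIs of Fn1 or Vcan, which encode matrix proteins that some monocytes and macrophages make. Cells with such UMIs made 12 of 24 and 8 of 15 myeloid cells in the controls and 160 of 195 and 111 of 121 in the SP11 samples. Among cells with them the share was 26.6% and 28.7% in the controls and 15.8% and 16.3% in the SP11 samples. Among cells without them it was 24.97% and 25.2% in the controls and 19.4% and 21.1% in the SP11 samples. Large subunit UMIs exceeded small subunit UMIs in every class, by a ratio of 1.27 in control and 1.26 in SP11 tumour-gated cells and of 1.23 and 1.19 in myeloid-gated cells.

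In tumour-gated cells, 7 of the 83 tested ribosomal protein genes fell with SP11, Rps28, Rps27rt, Rpl38, Rps29, Rps27, Rps21 and Rpl39, by edgeR's quasi-likelihood test with Benjamini-Hochberg adjustment at 0.05. Over all 11557 genes tested, 0.614% were called lower and 2.09% higher. None of the 83 was called higher, none at an unadjusted p under 0.05 and none by DESeq2, while 26 were lower at an unadjusted p under 0.05. The log2 change was below 0 for 81 of the 83 with a median of -0.25, against -0.01 over all genes. With scaling by total UMIs the median of all genes moved to 0.12 and that of the ribosomal protein genes to -0.12, and 18 of them were then above 0.

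Rps28, a small subunit protein at the mRNA exit, had 3404 and 4085 CPM in the control and 2231 and 2303 in the SP11 tumour-gated cells. The groups lay apart, with a log2 change of -0.85 ± 0.15 (SE, edgeR adjusted p = 0.00195). Rpl38, a large subunit protein whose loss in mice alters the translation of Hox mRNAs, had 2868 and 3012 in the controls and 2050 and 1781 in the SP11 samples. All SP11 values again lay below the controls, with a log2 change of -0.74 ± 0.15 (SE, edgeR adjusted p = 0.00757). Rps29, a zinc-binding protein of the small subunit, had 2244 and 2315 in the controls and 1612 and 1436 in the SP11 samples. Its log2 change was -0.70 ± 0.15 (SE, edgeR adjusted p = 0.00947).

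Rps27, a further zinc-binding small subunit protein, had 1098 and 1275 CPM in the controls and 806 and 783 in the SP11 samples, with a log2 change of -0.70 ± 0.14 (SE, edgeR adjusted p = 0.00632). Its retrogene Rps27rt moved beside it from 28.8 and 35.8 to 19.9 and 19.2, a log2 change of -0.85 ± 0.15 (SE, edgeR adjusted p = 0.00156). How these reads divide between Rps27 and its retrogene was not tested. Rps21, of the small subunit, went from 3056 and 3392 to 2268 and 2200, and Rpl39, which lines the exit tunnel, from 2072 and 2258 to 1515 and 1616 (log2 changes of -0.65 ± 0.15 and -0.60 ± 0.14, SE). The next genes below the threshold were Rpl37 with -0.57 ± 0.16 (edgeR adjusted p = 0.0657) and Rpl37a with -0.53 ± 0.16 (edgeR adjusted p = 0.0960).

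**Figure D2:**
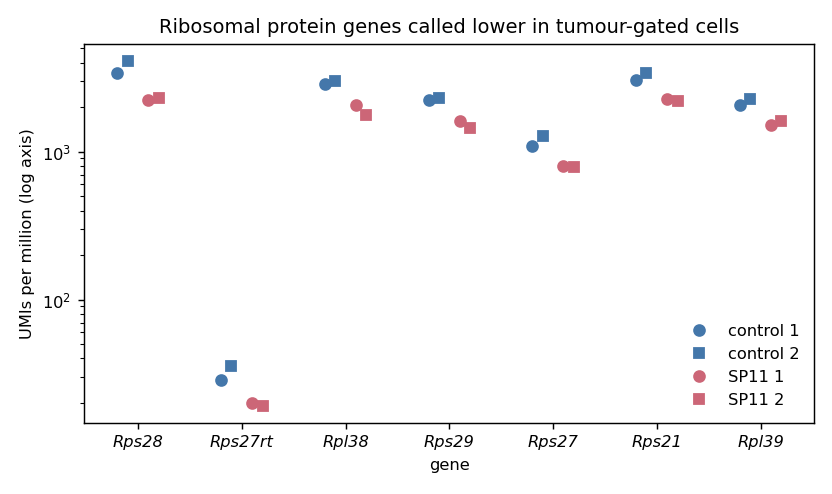
CPM (y axis, log axis) of the 7 ribosomal protein genes called lower in tumour-gated cells (x axis). Each point is 1 sample, circles sample 1 and squares sample 2 of each group. Both SP11 points lie below both control points for each gene, for Rps28 at 2231 and 2303 against 3404 and 4085.

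Other ribosomal proteins with well-known roles moved less and passed no threshold in tumour-gated cells. Rplp0, the base of the stalk that recruits elongation factors, had 3236 and 2996 in the controls and 3324 and 3169 in the SP11 samples. Rpl5 and Rpl11, which with 5S RNA bind Mdm2, had log2 changes of -0.21 ± 0.15 and -0.16 ± 0.15 (SE). Rps6, the target of S6 kinase, had -0.25 ± 0.15, Rps3, at the mRNA entry, had -0.29 ± 0.15, and Rps14, of the platform, had -0.12 ± 0.16. Rpl4 was the highest at 0.08 ± 0.15, and its control values of 1349 and 1276 overlapped the SP11 values of 1318 and 1734.

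The count of 7 depended on the library left out. It was 4 without control 1, 1 without control 2, 12 without SP11 sample 1 and 7 without SP11 sample 2. It was 7 without the barcodes that other libraries list.

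Outside the ribosomal proteins, none of the 18 translation factors, 32 ribosome biogenesis factors or 78 mitochondrial ribosomal proteins passed the test in tumour-gated cells. Their median log2 changes were -0.09, -0.03 and -0.14. At an unadjusted p under 0.05 edgeR had 3 translation factors higher and 1 lower, 2 biogenesis factors higher and 2 lower, and 13 mitochondrial ribosomal proteins lower. Larp1, mTOR and the S6 kinases, a list of 5 genes with Rptor, held none called and 1 higher at an unadjusted p under 0.05.

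The genes called lower in tumour-gated cells had short transcripts. The 6 canonical ones had a median length of 388.5 bases and none over 612 bases, against a median of 774 bases over the 77 canonical genes and 2636.5 over all tested genes with a length (median of each gene's protein-coding transcripts in GENCODE M21). Across the 77, the log2 change rose with length with Spearman's rho of 0.53, and across 10722 tested genes with rho of 0.40, both over the same 4 libraries. At a limit of 600 bases, chosen after the values were seen, the 21 shorter canonical genes had a median log2 change of -0.38 and the 56 longer ones -0.17. The 189 other genes under 600 bases had a median of -0.27, and 27 of them were called lower and 10 higher. The part of transcript length in the result was not tested.

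**Figure D3:**
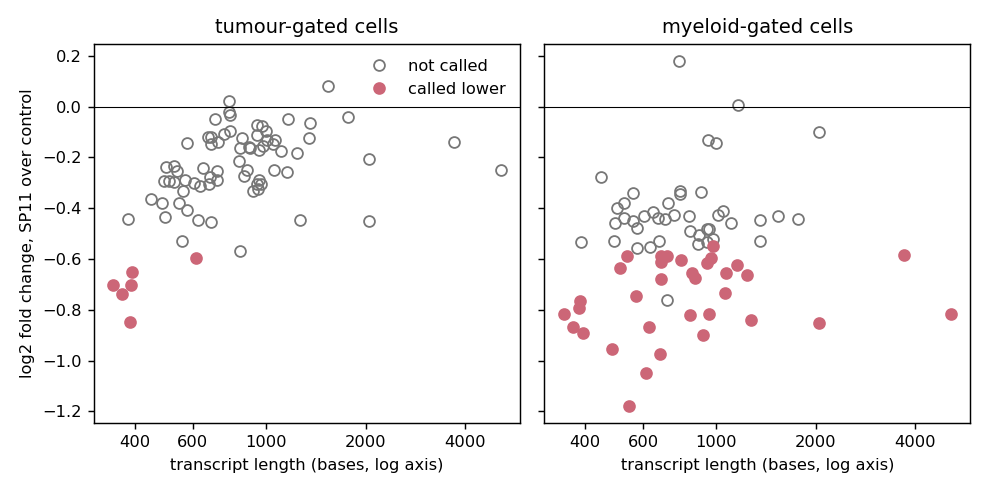
Log2 fold change of SP11 over control (y axis) against transcript length in bases (x axis, log axis) for the 77 canonical ribosomal protein genes in tumour-gated and myeloid-gated cells. Filled points were called lower. In tumour-gated cells the called genes are at most 612 bases long, and in myeloid-gated cells they reach 5130 bases.

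In myeloid-gated cells, 35 of the 80 tested ribosomal protein genes fell with SP11 and none rose. Over all 1993 genes tested, 4.26% were called lower and 7.02% higher. None was higher at an unadjusted p under 0.05 or by DESeq2, and 64 were lower at an unadjusted p under 0.05. The median log2 change was -0.53, and 77 of 80 were below 0. The 35 held 23 large subunit genes, 11 small subunit genes and the paralog Rpl22l1.

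Rps18, of the small subunit head, had 937 and 864 CPM in the control and 358 and 374 in the SP11 myeloid cells, a log2 change of -1.18 ± 0.28 (SE, edgeR adjusted p = 0.000953). Rpl39 had 2711 and 3078 in the controls and 1155 and 1411 in the SP11 samples, a log2 change of -1.05 ± 0.20 (SE, edgeR adjusted p = 1.93e-05). Rpl24, which forms a bridge between the subunits, went from 4042 and 3672 to 1858 and 1746, a log2 change of -0.98 ± 0.20 (SE, edgeR adjusted p = 6.94e-05). For these genes the SP11 values lay below the lowest control value. Rpl36a (-0.95 ± 0.23), Rps21 (-0.89 ± 0.20), Rpl38 (-0.87 ± 0.20), Rps27 (-0.82 ± 0.23) and Rps28 (-0.76 ± 0.21) were also called, and Rps29 was not (-0.53 ± 0.20, edgeR adjusted p = 0.0595). Rpl13a and Rpl7 had overlapping values, Rpl13a with 1454 and 1566 in the controls and 1585 and 1552 in the SP11 samples.

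Of the 18 translation factors 15 were tested, and Eef1g (-0.86 ± 0.30) and Eif4ebp1 (-0.92 ± 0.33) fell while Eif4g1 rose (3.24 ± 1.01). Fau, whose product is cleaved into a ubiquitin-like part and a small subunit protein, fell by 0.69 on the log2 scale. None of the 34 tested mitochondrial ribosomal proteins or 7 tested biogenesis factors was called by edgeR, and 3 and 1 of them were lower at an unadjusted p under 0.05.

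The myeloid count rested on 39 control cells in 2 sums. It was 4 without control 1, 3 without control 2, 0 without SP11 sample 1 and 1 without SP11 sample 2. The median of -0.53 was -0.61 to -0.32 with 1 library left out, with -0.32 without SP11 sample 1 and -0.33 without SP11 sample 2. The gene set changed with the library. It held 3777 genes without control 1, 3826 without control 2, 779 without SP11 sample 1 and 758 without SP11 sample 2, against 1993 with all. The count was 0 where barcodes listed by another library were removed, a fit that drops control 2 for its 9 remaining cells, and the median was then -0.50. It was also 0 among cells without Fn1 or Vcan, a fit on 501 genes that drops control 2 for its 7 remaining cells and left a median of -0.07. In the myeloid-gated cells the 8 markers of the gate summed to 8133 and 7370 CPM in the controls and 12856 and 13202 in the SP11 samples, and Krt8 and Krt18, which the gate caps at 1 UMI a cell, to 222 and 135 against 233 and 141. Their part in the result was not tested.

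Whether SP11 changed a ribosomal protein gene differently in myeloid and tumour-gated cells was tested by the interaction of class and treatment. None of the 83 genes passed edgeR's test, where 0.8% of 11377 genes were called higher in the myeloid effect and 0.229% lower. At an unadjusted p under 0.05, 9 were higher and 1 lower, and DESeq2 called none. The median interaction was 0.05, beside 0.70 over all genes. It was -0.27 with DESeq2, which changes the test as well as the scaling, and -0.56 with total UMIs, where 38 ribosomal protein genes were called lower and the calls over all genes moved from 91 higher and 26 lower to 12 and 116.

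Among classes of the SP11 samples, ribosomal protein genes were compared with those of tumour-gated cells in the same samples. In neutrophils 79 of 82 were lower, at a median log2 difference of -2.05 against -0.79 over all genes, where 25.9% of 4254 genes were called lower and 21% higher. In myeloid cells 62 were lower at a median of -0.94 (all genes -0.12, 35.9% lower and 33.7% higher). In T cells 41 were lower at a median of -0.78 (all genes -0.53, 24.8% lower and 17.3% higher). In B cells 14 were lower and 9 higher at a median of -0.02 (all genes -0.24, 33.3% lower and 27.1% higher). The 82 include Rps19bp1, no ribosomal protein, which was among the genes lower in B, T and myeloid cells. Of the canonical genes, 12 were lower in B cells, 38 in T cells, 58 in myeloid cells and 76 in neutrophils. In T cells, myeloid cells and neutrophils edgeR called none higher, none at an unadjusted p under 0.05, and DESeq2 called 2, 1 and 0 higher.

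**Figure D4:**
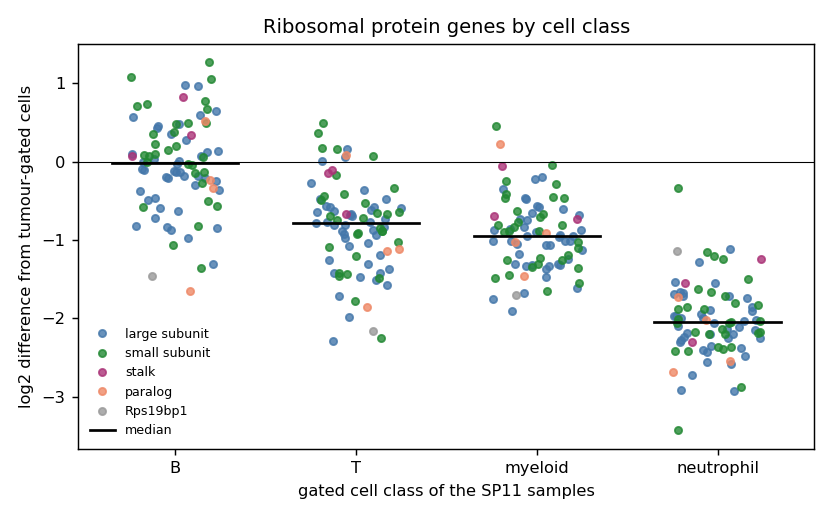
Log2 difference of each ribosomal protein gene from tumour-gated cells (y axis) in 4 cell classes of the SP11 samples (x axis), from the edgeR fit with sample as a term. Points are genes coloured by subunit and bars are medians over 82 genes, which run from -0.02 in B cells to -2.05 in neutrophils.

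B cells held the widest spread of direction. Rps24, a small subunit protein, had 8338 and 8737 CPM in the B cells and 3760 and 3830 in the tumour-gated cells of SP11 samples 1 and 2, a log2 difference of 1.27 ± 0.34 (SE, edgeR adjusted p = 0.000488). Rps27 had 1345 and 1821 in B cells against 806 and 783, a log2 difference of 1.08 ± 0.25 (SE, edgeR adjusted p = 7.35e-05). Rps9, of the small subunit body, had 5574 and 5830 against 3062 and 2823, a log2 difference of 1.05 ± 0.32 (SE, edgeR adjusted p = 0.00258). Both B cell values exceeded both tumour values for each. Rpl39 (0.98 ± 0.28), Rplp0 (0.83 ± 0.31), Rps29 (0.77 ± 0.29), Rps2 (0.74 ± 0.29) and Rps21 (0.67 ± 0.30) were also called higher.

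On the low side, Rpl4, which lines the exit tunnel, had 554 and 596 CPM in B cells against 1318 and 1734 in tumour-gated cells, a log2 difference of -1.31 ± 0.26 (SE, edgeR adjusted p = 1.35e-06). Rps25, which some viral RNAs need for translation, was at -1.07 ± 0.29. Rps19bp1, a nucleolar protein and no part of the ribosome, was at -1.46 ± 0.32. The split of 9 higher and 14 lower moved to 23 and 14 with DESeq2, to 0 and 20 without the filter on low counts and to 12 and 9 with scaling factors from the other genes alone, a setting added after seeing the data.

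Rpl4 was among the lowest genes in all 4 classes. It was at -1.99 ± 0.34 in T cells, -1.90 ± 0.26 in myeloid cells and -2.91 ± 0.42 in neutrophils. Each of these 3 differences passed the edgeR test. Other genes with large differences were Rpl35 at -2.29 ± 0.36 and Rps19bp1 at -2.16 ± 0.64 in T cells, Rpl21 at -1.75 ± 0.31 and Rpl15 at -1.67 ± 0.32 in myeloid cells, and Rps18 at -3.43 ± 0.52, Rpl15 at -2.93 ± 0.40 and Rpl21 at -2.72 ± 0.39 in neutrophils. Several of these values rest on few UMIs. The neutrophil sums held 18 and 52 cells with 18882 and 61506 UMIs, where Rps18 had 53.0 and 81.3 CPM and Rpl4 53.0 and 211. The T cell sums held 9492 and 75518 UMIs, where Rps19bp1 had 105 and 39.7 CPM and Rpl35 211 and 450. The classes share the tumour-gated sums they were compared with.

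At the other end, Rps9 did not pass the test in T cells (0.18 ± 0.34), myeloid cells (-0.04 ± 0.32) or neutrophils (-0.34 ± 0.35). In neutrophils it had 1960 and 1902 CPM against 3062 and 2823 in tumour-gated cells. Rps29 was at 0.46 ± 0.28 in myeloid cells and Rps27 at 0.49 ± 0.30 in T cells, neither past the threshold, and both fell in the neutrophils (-1.15 ± 0.38 and -1.21 ± 0.41). The stalk proteins Rplp0 and Rplp1 were lower in myeloid cells (-0.73 ± 0.32 and -0.70 ± 0.32), and Rplp2 was not called there (-0.06 ± 0.28).

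These differences carry the scaling of the fit. With total UMIs the T cell median was -0.34, with 25 genes lower and 6 higher, and the neutrophil median was -2.35. Hemoglobin made 35.9% and 32.9% of the UMIs of the neutrophils and 10.6% and 6.97% of those of the T cells. The T cell sum of SP11 sample 1 held 14 cells and 9492 UMIs. With 1 SP11 sample left there is no test, and the class medians were closer to or above 0. These fits also kept fewer genes, 1034 without SP11 sample 1 and 510 without SP11 sample 2, against 4254 with both. Without SP11 sample 1 the median was -1.66 in neutrophils, -0.50 in myeloid cells, -0.026 in T cells and 0.33 in B cells. Over all genes the medians were then -0.06, 0.03, 0.03 and -0.03 in the same order. Without SP11 sample 2 the ribosomal protein median was -0.81 in neutrophils, -0.33 in myeloid cells, 0.047 in T cells and 0.61 in B cells. Over all genes the medians were then 0.06, 0.01, 0.07 and 0.21. The part of the gene set and scaling in these moves was not tested. Called values of single genes moved as well. Without SP11 sample 2, Rps25 was at -0.51 and Rpl39 at 1.53 in B cells, Rpl15 at -1.09 in myeloid cells and -1.90 in neutrophils, Rpl21 at -1.61 in neutrophils and Rps27l at 0.055 in T cells. Without SP11 sample 1, Rpl35 was at -1.52 and Rpl4 at -1.31 in T cells and Rps27 at 1.64 in B cells.

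The other translation genes were counted in the same fits, where 33.3% of all genes were called lower in B cells, 24.8% in T cells, 35.9% in myeloid cells and 25.9% in neutrophils. Of 18 translation factors, 10 were lower in B cells, 12 in T cells, 14 in myeloid cells and all 18 in neutrophils. Of 23 tested ribosome biogenesis factors, 19, 20, 23 and 15 were lower, with medians of -1.39, -1.89, -1.88 and -2.59, and of 68 mitochondrial ribosomal proteins 53, 39, 56 and 42 were lower. Npm1, a nucleolar chaperone of ribosome assembly, was at -1.87 ± 0.29 and Ncl at -1.78 ± 0.26 in B cells, while Fau was at 1.17 ± 0.36.

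Paralogs were set against their canonical gene as a share of the UMIs of both. Rps27l, a p53 target close to Rps27, made 34.95% and 35.5% of the pair in control and 39.4% and 43.2% in SP11 tumour-gated cells. In control myeloid cells it made 17.2% and 18.03% and in SP11 myeloid cells 34.8% and 24.8%, while in B cells it made 10.4% and 8.71%. The values of the 2 groups lay apart in tumour and in myeloid cells, with differences of 6.14 and 12.2 percentage points. The exact permutation test gave p = 0.333 for each. The control myeloid shares rest on 11 Rps27l UMIs beside 53 of Rps27 in control 1 and 11 beside 50 in control 2. Their Clopper-Pearson intervals for counting error were 8.9% to 28.7% and 9.4% to 30.0%. The 24.8% of SP11 sample 2 lay within both intervals, and the 34.8% of SP11 sample 1 lay above both. Between the controls and SP11 sample 2 the myeloid shares were therefore not apart beyond counting error. The myeloid difference was 7.21 to 17.2 percentage points with 1 library left out, lowest without SP11 sample 1. Rps27 fell in both classes (above), and Rps27l passed no threshold, at -0.33 ± 0.14 in tumour-gated and 0.14 ± 0.38 in myeloid cells. Against tumour-gated cells Rps27l was lower in B cells (-1.64 ± 0.24), T cells (-1.85 ± 0.38), myeloid cells (-1.02 ± 0.21) and neutrophils (-2.55 ± 0.51), although Rps27 was higher in B cells.

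Rpl36al, a paralog of Rpl36a, made 36.3% and 37.3% of its pair in control and 40.4% and 37.2% in SP11 tumour-gated cells, which overlapped (exact permutation p = 0.667). In myeloid cells it made 52.7% and 43.9% in control and 58.4% and 56.6% in SP11, which lay apart by 9.16 percentage points (exact permutation p = 0.333), and by 4.76 without control 2. In B cells it made 48.3% and 47.9%. Its level against tumour-gated cells was not called in B (0.52 ± 0.25, edgeR adjusted p = 0.0545) or myeloid cells (0.23 ± 0.24).

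Rpl22l1, whose protein can take the place of the RNA-binding protein Rpl22, made 28.7% and 27.7% of its pair in control and 28.4% and 30.2% in SP11 tumour-gated cells. In myeloid cells the shares were 19.4% and 29.0% against 18.5% and 24.8%. The groups overlapped in both classes. Rpl22l1 and Rpl22 both fell in the myeloid cells (-1.07 ± 0.34 and -0.85). With 1 library left out the Rpl22l1 change was -1.56 to -0.39, and it was called without control 1 alone, not without control 2 (-0.39), SP11 sample 1 (-0.54) or SP11 sample 2 (-1.33). Rpl22l1 was lower than in tumour-gated cells in SP11 myeloid cells (-1.45 ± 0.23), T cells (-1.14 ± 0.34) and neutrophils (-2.69 ± 0.52).

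**Figure D5:**
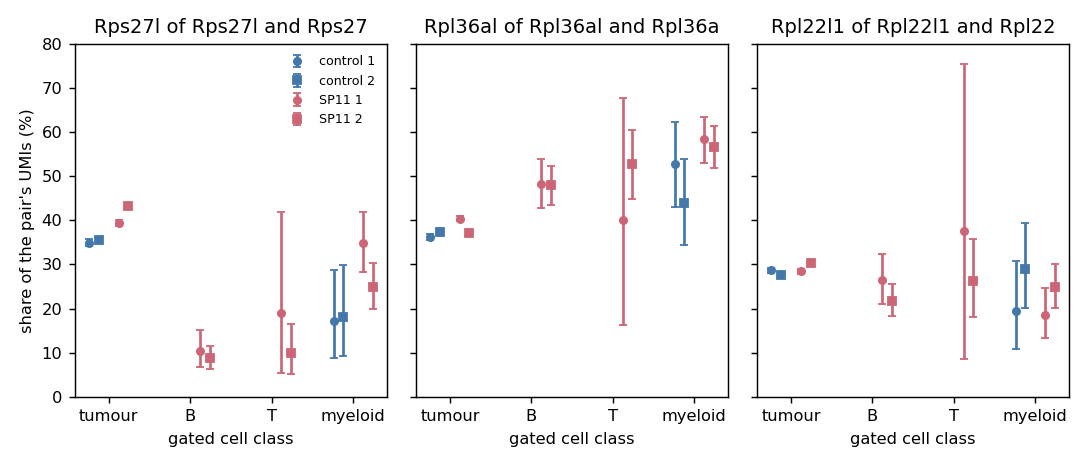
Share of the paralog in the UMIs of its pair (y axis, percent) by gated cell class (x axis) for Rps27l, Rpl36al and Rpl22l1. Points are samples with at least 10 cells of the class and bars are 95% Clopper-Pearson intervals for counting error. Rps27l is at 34.95% to 43.2% in tumour-gated cells and at 8.71% and 10.4% in B cells.

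The remaining paralogs were scarce. Rpl7l1, a nucleolar relative of Rpl7, made 3.24% and 2.997% of its pair in control and 3.06% and 2.71% in SP11 tumour-gated cells. Rps27rt made 2.56% and 2.73% in control and 2.41% and 2.40% in SP11 samples. Rpl3l, known from striated muscle, and Rpl39l, known from male germ cells, had 0 to 3 UMIs per sample in tumour-gated cells. Rpl10l had 0 UMIs in all, which in the tumour-gated cells of control 1 allows a share of up to 0.0289% of its pair, for counting error alone.

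Within tumour-gated cells, the share on ribosomal protein genes was lower in cells with more mitotic marker UMIs. Cells were thinned to 5000 UMIs, and those with at least 6 UMIs of 8 mitotic markers (the upper quartile of each sample) were set against those with at most 1 (the lower quartile). The share was 31.8% in the mitosis-high and 32.8% in the mitosis-low cells of control 1, 32.3% and 33.1% in control 2, 29.9% and 31.2% in SP11 sample 1, and 28.8% and 30.1% in SP11 sample 2. The mitosis-high cells were lower in 4 of 4 samples. Before thinning they also held more UMIs than the mitosis-low cells. Their medians were 13451 against 10096 in control 1, 20547 against 16331 in control 2, 11012 against 8032 in SP11 sample 1 and 23498.5 against 18276 in SP11 sample 2. The part of the UMIs per cell in the difference was not tested.

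By gene, 53 of 83 were lower in the mitosis-high cells, where edgeR called 5.24% of 7647 genes lower and 5.41% higher. None was higher, also at an unadjusted p under 0.05 and by DESeq2. The changes were small, with a median of -0.09 and a range of -0.16 to 0.00 among the canonical genes. Rps27l had the largest, from 633, 759, 581 and 653 CPM in the mitosis-low cells to 543, 681, 470 and 592 in the mitosis-high cells of the same samples, a log2 difference of -0.25 ± 0.05 (SE, edgeR adjusted p = 1.53e-05). It was followed by Rps26 (-0.16 ± 0.03) and Rps27 (-0.16 ± 0.04), while Rpl23a was at 0.00 ± 0.04. The count was 35 without control 1, 65 without control 2, 31 without SP11 sample 1 and 32 without SP11 sample 2. Fau and Rack1 were also lower in the mitosis-high cells, and the translation factors Eef2 (0.20 ± 0.05) and Pabpc1 (0.17 ± 0.05) were higher.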

How the data were processed

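Cells of 4 samples were profiled by droplet 3′ RNA sequencing. The counts deposited by the authors are UMIs of each gene in each barcode, made with Cell Ranger 7.1.0 on a build that the submitters' processing notes give as mm10, while the study's methods name hg38. No normalization was applied to the deposited counts. Control and SP11 follow the sample labels.

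The genes and gene lists were chosen with earlier results of these data known. Cells with at least 200 genes and at most 10% mitochondrial UMIs were gated. Tumour-gated cells had at least 3 UMIs of Krt8 and Krt18, and the others at most 1, with at least 2 UMIs of 3 B cell or 6 T cell markers, 5 of 8 myeloid markers or 10 of 3 neutrophil markers. UMIs were summed per class and sample (at least 10 cells) and tested with edgeR 4.0.16 (R 4.3.3), whose quasi-likelihood test was run after TMM and filterByExpr, with p-values adjusted by Benjamini-Hochberg at 0.05. Class comparisons and the mitotic comparison had the sample as a term. Fitted differences use TMM, while CPM (UMIs per 1000000 UMIs of a class and sample) use total UMIs. Shares were compared by exact permutation tests. CPM carry no length correction, because 3′ counting gives 1 UMI per molecule. Genes named were up to 5 called genes per direction and comparison with groups apart, all paralogs and fixed well-known members, and others were named after their values were seen. Some genes that this rule names are not reported here. In simulated counts the test called 80.6% of 2-fold changes in tumour and 27.9% in myeloid sums. Intervals cover counting error alone. Start windows came from RefSeq and positions from GENCODE M21. DESeq2 1.42.0 was an alternative, and the closing section gives the others.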

Additional observations from a re-analysis of the deposited data

How the results depend on the processing

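The control B, T and neutrophil gates held under 10 cells, so SP11 against control was tested in 2 classes. Removing the barcodes marked by Scrublet was not run, because its automatic limit marked 88.9% of control 1 and 0.0546% of SP11 sample 1. Instead the 5% of cells with the highest scores were left out. The cause of each change below was not tested.

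In tumour-gated cells the count of genes lower (7) was 23 with the replicate number as a block and 1 to 12 with 1 sample left out. Same-numbered samples deviated together with a correlation of 0.233 in tumour and 0.0671 in myeloid cells. The study's methods state that the control and SP11 samples came in 2 independent sets, without naming the members of each. The labels give only the number, and 2 pairs do not settle whether it marks such a set. The myeloid count (35) was 40 with the block, 21 with DESeq2, 2 without the low-count filter, 62 with total UMIs, 20 with stricter gates, 0 without Fn1 or Vcan cells, 0 without shared barcodes and 0 to 4 with 1 sample left out. In the interaction total UMIs gave 38 genes lower, and its median was -0.56, and -0.27 with DESeq2. The mitotic count (53) was 30 with total UMIs, 31 with DESeq2 and 31 to 65 with 1 sample left out.

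In B cells the genes higher (9) were 23 with DESeq2, 0 without the filter, 14 with total UMIs, 20 with at least 500 genes a cell and 14 without shared barcodes, and the genes lower (14) were 22 with total UMIs, 9 with factors from non-member genes and 27 with at least 500 genes. In T cells the genes higher (0) were 2 with DESeq2 and 6 with total UMIs, and the genes lower (41) were 70 without the filter, 25 with total UMIs, 65 with at least 500 genes and 26 with stricter gates. The latter pair rests on the T cells of SP11 sample 2. In myeloid cells 1 gene was higher with DESeq2, without the filter, with total UMIs, with at least 500 genes and without shared barcodes. With 1 SP11 sample left out there is no test, and the fits kept 1034 or 510 genes against 4254. The median was then -1.66 to -0.81 in neutrophils, -0.50 to -0.33 in myeloid, -0.026 to 0.047 in T and 0.33 to 0.61 in B cells. In these fits Rps27l was at -1.61 to 0.055 in T cells and Rps25 at -0.76 to -0.51 in B cells. The myeloid Rpl22l1 change was 0.19 without Fn1 or Vcan cells, and its share difference (-2.57 points) was -7.38 to 2.24 points with 1 sample left out, and 0.617 without SP11 sample 1. The share of UMIs on ribosomal protein genes kept its direction in each alternative, with differences of -2.89 to -1.87 points in tumour and -10.7 to -9.25 in myeloid cells with 1 sample left out.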
